A study of Mus musculus with 4 samples.

Results

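The kinesin family was read in glomeruli, the capillary tufts where the kidney filters blood, isolated from mice aged 3 weeks. Members were the rows of the deposited expression table with a mapped symbol of Kif or Kifc followed by a digit, a protein-coding gene model and a mean of at least 1 TPM over the 4 libraries. TPM is a read count per gene length with a common total for all libraries, so levels can be compared between genes. The rule found 37 members among 22809 listed genes, of which 11 were classed as mitotic kinesins, 14 as transport kinesins and 10 as kinesins of other roles. The last 2 were Kifc5b, a close copy of Kifc1, and Kif1bp, which the letters of the rule take in although it encodes a protein that binds kinesins and is not a motor. Members were thus chosen by their mean level, which is not a result. Just inside the threshold were Kif1a at a mean of 1.02 TPM, Kif14 at 1.21 TPM and Kif7 at 1.40 TPM, and just outside were Kif18a at 0.919 TPM, Kif6 at 0.868 TPM and Kif17 at 0.572 TPM. Kif19a, at 0.477 TPM, was the other one left out.

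Poly(A) RNA was sequenced in 2 control libraries, labelled wild type and untreated, and in 2 libraries labelled as podocyte-specific knockout, which the series' title gives as Hdac1 and Hdac2 deficiency. Each library was made from a pool of 2 mice, 2 independent experiments were run, and the driver of the deletion is not given in the sources used here. Podocytes are epithelial cells whose foot processes cover the capillaries of the glomerulus, and HDAC1 and HDAC2 are histone deacetylases. The comparison asks which transcripts of the glomerulus differ when podocytes are meant to lack both enzymes.

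Kinesins are motor proteins that use ATP to move along or to take apart microtubules. One set works on the mitotic spindle, where its members separate the poles, move chromosomes and organise cytokinesis, and its transcripts are made mainly in dividing cells. Another set carries vesicles, organelles and protein complexes through cells that need not divide, and in kidney epithelium such motors also supply the primary cilium. Differentiated podocytes have left the cell cycle.

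A check of the labels and of the tissue comes before the values. Whole reads recovered from the TPM numbered from 12876939 to 20943138 a library. Values are given with replicate 1 before replicate 2 and the control pools first. Hdac1 measured 19.3, 18.6, 22.9 and 22.5 TPM and Hdac2 measured 20.2, 24.1, 23.5 and 20.9 TPM. Neither target transcript was lower in the pools labelled knockout, so they do not check the labels, on which each direction below rests. All 7 podocyte markers were present, and their summed TPM was 320 and 717 in the control pools and 105 and 275 in the knockout-labelled pools. The 6 proximal tubule markers summed to 7247 and 4525 TPM in the control pools and to 1705 and 2120 TPM in the knockout-labelled pools, with the highest sum in control replicate 1. The 6 macrophage and leukocyte markers summed to 38.3 and 95.3 TPM in the control pools and to 415 and 483 TPM in the knockout-labelled pools. The 5 parietal epithelial markers summed to 153 and 189 TPM against 714 and 498 TPM. In bulk RNA, more cells of a type and more RNA per cell cannot be told apart. The part of these cell mixtures in the kinesin values was not tested.

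The promoters are shown first because the mitotic kinesins share letters there. Promoter windows of 300 bases, 250 before and 50 after the RefSeq start (GRCm38.p6), were found for 29 of the 37 members. They were searched on both strands for TTTGAA and TTCGAA, 2 forms of the cell cycle genes homology region, an element known from promoters of genes expressed in late cell cycle. No other form was searched. TTTGAA reads TTCAAA on the other strand. All 10 mitotic kinesins with a window held a match, against 0 of 9 transport kinesins, 3 of 9 kinesins of other roles, 14.1% of 10447 protein-coding genes with a mean of at least 1 TPM and 19.4% of all 27025 genes with a window. At only 9 genes, the 0 of the transport class cannot be told apart from the 14.1% of protein-coding genes. In 8 of the 10 mitotic kinesins the match began within 20 bases of the start, as in 1.47% of those protein-coding genes. The 30 bases around each of these 8 matches are printed on the strand of the gene, with the match in capitals. Kif20b holds a second TTTGAA, from base 14 after the start, which is left in lower case.
Kif11: tcgtctccatttTTCAAAattgaggcgcgg
Kif15: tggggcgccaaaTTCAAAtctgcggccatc
Kif22: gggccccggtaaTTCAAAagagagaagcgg
Kifc1: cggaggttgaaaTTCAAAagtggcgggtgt
Kif23: ctgattggcctgTTTGAAatgcgccgggcg
Kif18b: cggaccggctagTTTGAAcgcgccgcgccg
Kif20b: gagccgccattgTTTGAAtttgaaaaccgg
Kif4: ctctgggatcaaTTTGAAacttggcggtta
The match began 19 bases before the start in Kif11 (chr19:37376351-37376380, plus strand) and Kif15 (chr9:122951050-122951079, plus strand) and 17 bases before it in Kif22 (chr7:127042420-127042449, minus strand). It began at base 2 after the start in Kifc1 (chr17:33890615-33890644, minus strand), base 3 in Kif23 (chr9:61946780-61946809, minus strand), base 4 in Kif18b (chr11:102925104-102925133, minus strand), base 8 in Kif20b (chr19:34922353-34922382, plus strand) and base 20 in Kif4 (chrX:100626072-100626101, plus strand). In Kif2c and Kif14 the match lay farther off, 103 and 228 bases before the RefSeq start. GENCODE places the start of Kif2c 3867 bases, of Kif14 1505 bases and of Kif4 328 bases before that of RefSeq. In these 3 genes the match lies inside the longer gene model. The GENCODE starts of Kif22, Kif15 and Kifc1 lie 51, 35 and 28 bases before those of RefSeq, so their printed matches are inside as well. The matches of Kif18b and Kif20b are also inside, and those of Kif11 and Kif23 lie before the GENCODE start. A match is a run of letters, not a shown site of binding.

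CCAAT, the letters bound by the factor NF-Y, was searched in the same windows on both strands. It was found in 7 of the 10 mitotic and 3 of the 9 transport kinesins, against 38.1% of the protein-coding genes. Both kinds of letters stood together in 7 of 10 mitotic kinesins, 0 of 9 transport kinesins and 3 of 9 kinesins of other roles, against 5.83% of the protein-coding genes. The 0 of 9 cannot be told apart from that share. The 250 bases before the start are printed for 1 gene of each class, with matches in capitals. Kif22 (chr7:127042421-127042670, minus strand) holds 2 CCAAT matches and 2 of the cell cycle letters, while Kif3b (chr2:153291166-153291415, plus strand) holds a single CCAAT.
Kif22: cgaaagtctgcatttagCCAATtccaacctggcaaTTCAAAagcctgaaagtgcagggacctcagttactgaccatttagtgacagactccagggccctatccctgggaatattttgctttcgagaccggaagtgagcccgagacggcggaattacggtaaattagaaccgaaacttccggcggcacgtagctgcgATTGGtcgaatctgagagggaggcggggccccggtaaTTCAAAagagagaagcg
Kif3b: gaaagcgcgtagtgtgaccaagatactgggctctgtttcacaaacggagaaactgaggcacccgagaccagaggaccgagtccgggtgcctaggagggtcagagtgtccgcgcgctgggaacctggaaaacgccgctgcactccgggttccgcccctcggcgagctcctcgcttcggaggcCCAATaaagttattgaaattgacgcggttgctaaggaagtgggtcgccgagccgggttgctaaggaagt

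Mitotic kinesins were higher in the knockout-labelled pools. Their summed level was 21.8 and 29.8 TPM in the control pools and 47.0 and 60.8 TPM in the knockout-labelled pools. Of 11 members, 10 lay above both controls in both knockout-labelled pools and 0 lay below, where 36.7% of all 18612 tested genes lay above and 14.3% below. Of these 10, Kif2c, Kif14, Kif15 and Kif18b had a control mean under 1 TPM and passed the threshold of level through the knockout-labelled pools, so their place in the count is partly set by the rule. With no filter on level, 11 of the 12 mitotic kinesins in the table lay above both controls, beside 36.3% of all 22809 genes. None passed an adjusted p under 0.05 by limma, a linear model fitted across all tested genes, which called 0.00537% of genes (1 of 18612, lower), and the lowest adjusted p of the class was 0.110. Of the 11, 6 were higher and 0 lower with p under 0.05 before adjustment, against 13.4% and 4.46% of all genes. The median log2 fold change of TPM + 1 was 0.88 (SD over the members 0.33), against 0.17 over all tested genes. This median, the summed level and the counts by p include Kif2c, Kif14, Kif15 and Kif18b, so they too are partly set by the rule. The levels were low, with control counts between 19 and 353 reads a gene, and TPM + 1 understates the change of low genes. On whole reads (limma-voom, which models counts without that offset) the class median was 1.20 and 0 genes of the 18110 tested were called. By that fit 9 of the 11 were higher and 0 lower with p under 0.05 before adjustment, beside 14.1% and 5.36% of genes, and with median-ratio library sizes 8 and 0, beside 10.1% and 7.76%. Of the 11, 4 were higher with p under 0.05 before adjustment without control replicate 1, beside 11.9% of all genes, and 10 without control replicate 2, beside 26.6%. The count was 2 without knockout-labelled replicate 1, beside 6.4%, and 1 without knockout-labelled replicate 2, beside 5.16%. Without mitochondrially encoded genes 9 of the 11 lay above both controls, beside 27.2% of genes, Kif23 then overlapping as well, and 4 were higher with p under 0.05 before adjustment, beside 8.98%.

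**Figure D1:**
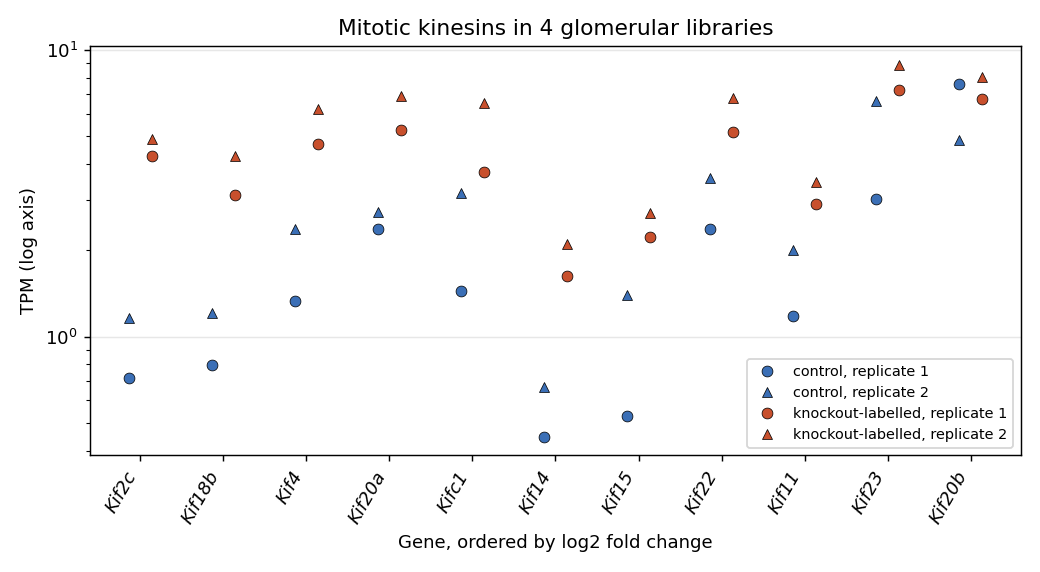
Level of each mitotic kinesin in each library, in TPM on a log axis, with genes in order of log2 fold change. The knockout-labelled points lie above both control points for 10 of 11 genes, all but Kif20b, and knockout-labelled replicate 2 is the highest for all 11.

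The largest difference of the class was in Kif2c (chromosome 4, 117159639 to 117182639), which encodes MCAK, a kinesin that takes apart microtubule ends at centromeres and so corrects wrong attachments. Kif2c was at 0.719 and 1.16 TPM in the control pools against 4.26 and 4.88 TPM in the knockout-labelled pools, from 21, 27, 133 and 178 reads. The groups lay far apart beside their spread, 0.938 ± 0.310 against 4.57 ± 0.438 TPM (SD, n = 2 each), which is 4.87-fold. Its control mean was under 1 TPM and it passed the threshold of level through the knockout-labelled pools. This fold is thus partly set by the rule. The log2 fold change was 1.53 (SE 0.30, adjusted p = 0.110 by limma), and 2.27 (SE 0.39, adjusted p = 0.0697) by voom on whole reads. Without control replicate 2 Kif2c passed (log2 fold change 1.69, adjusted p = 0.0358 by limma), in a fit that called 2080 genes in all.

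Kif18b (chromosome 11, 102905529 to 102925124) encodes a kinesin that shortens astral microtubules and works with MCAK. It was at 0.795 and 1.20 TPM in the control pools against 3.13 and 4.25 TPM in the knockout-labelled pools, on 19, 23, 80 and 127 reads (log2 fold change 1.23 with SE 0.32, adjusted p = 0.150 by limma). Its means were 3.69-fold apart, and the groups did not overlap. As its control mean was just under 1 TPM, it too passed the threshold through the knockout-labelled pools, and its fold is partly set by the rule. Kif18a, its relative that dampens chromosome movement at the metaphase plate, was under the threshold of level, at 0.395, 0.780, 1.24 and 1.26 TPM in the same order of libraries. It was not tested.

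Kif4 (chromosome X, 100625737 to 100727214) encodes the chromokinesin that sets the length of the central spindle with PRC1. It was at 1.33 and 2.37 TPM in the control pools against 4.69 and 6.20 TPM in the knockout-labelled pools (log2 fold change 1.19 with SE 0.33, adjusted p = 0.167 by limma). Both knockout-labelled values were clear of both controls, although the higher control was nearly as far from the lower one on a log scale as the groups' nearest values were from each other. Exons of Kif4 share 15.1% of their bases with Pdzd11, and the strand setting of the counting is not known. Without control replicate 2 Kif4 passed (1.46, adjusted p = 0.0493 by limma). Kif22, the other chromokinesin, which pushes chromosome arms away from the poles, measured 2.38, 3.59, 5.16 and 6.80 TPM in the order given above (log2 fold change 0.82, SE 0.31).

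Kinesins of cytokinesis did not behave alike. Kif20a, which brings the chromosomal passenger complex to the central spindle, was at 2.38 and 2.72 TPM in the control pools against 5.25 and 6.92 TPM in the knockout-labelled pools (log2 fold change 0.99 with SE 0.28, adjusted p = 0.173 by limma). Exons of Kif20a share 29.3% of their bases with Cdc23. Kif14, needed for the last step of abscission, was at 0.447 and 0.668 TPM against 1.63 and 2.10 TPM (0.88, SE 0.32). Both genes had control values close to each other and well below the knockout-labelled ones. The control mean of Kif14 was under 1 TPM, so its difference is partly set by the rule.

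Kif23, the motor of the centralspindlin complex, was at 3.03 and 6.65 TPM in the control pools against 7.23 and 8.90 TPM in the knockout-labelled pools (log2 fold change 0.70, SE 0.38). Control replicate 2 was here nearer to the knockout-labelled pools than to the other control. Kif20b, which acts late in cytokinesis, was at 7.58, 4.84, 6.77 and 8.04 TPM in the same order (0.24, SE 0.29), and was the 1 mitotic member whose groups overlapped. It alone of the class was lower in control replicate 2 than in control replicate 1, and its log2 fold change was -0.03 without control replicate 2.

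The motors that hold the spindle poles apart or together had moderate differences. Kif11, the plus-end motor Eg5 that pushes poles apart, was at 1.18 and 2.01 TPM in the control pools against 2.90 and 3.46 TPM in the knockout-labelled pools (log2 fold change 0.70, SE 0.32). Kif15, which backs up Eg5, was at 0.529 and 1.39 TPM against 2.22 and 2.69 TPM (0.85, SE 0.36). Kifc1, a minus-end motor that draws poles together, was at 1.44 and 3.18 TPM against 3.76 and 6.51 TPM (0.90, SE 0.41). In all 3 the groups did not overlap, and the controls differed from each other by more than 1 SE. Kif15 had a control mean under 1 TPM, so its difference is partly set by the rule.

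Kifc1 and Kifc5b share 95.97% of the bases of the shorter of their longest coding transcripts, so reads can be split between them and their values are uncertain. Kifc5b was at 1.86 and 3.03 TPM in the control pools against 2.42 and 4.30 TPM in the knockout-labelled pools, and its groups overlapped. No other pair of kinesins came above 61.4%.

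The mitotic class also differed within each group. Control replicate 2 was above control replicate 1 in 10 of 11 mitotic members, beside 13475 of all 18612 tested genes. The median difference was 0.44 on the log2(TPM + 1) scale, where the median over all tested genes was 0.28. Knockout-labelled replicate 2 was above knockout-labelled replicate 1 in all 11, beside 11950 of all 18612 tested genes. The median difference was 0.27, where the median over all tested genes was 0.09. Among transport kinesins each of these counts was 11 of 14. The median level of the class was 1.33 and 2.37 TPM in the control pools and 4.26 and 6.20 TPM in the knockout-labelled pools. The pooled SD of these library medians within a group was 0.35 on the log2(TPM + 1) scale. The 0.88 given above is a median of gene fold changes, which is another measure than the difference of these library medians. An exact permutation test of 2 against 2 libraries cannot go below p = 0.333 two-sided and was not used.

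Partners of these motors at the spindle were higher as well. Of 16 listed spindle and cytokinesis genes, 15 lay above both controls in both knockout-labelled pools, 0 lay below, 12 were higher with p under 0.05 before adjustment and 0 passed the adjusted threshold, beside 36.7%, 14.3%, 13.4% and 0.00537% of all tested genes. Cenpe, a kinesin by family that carries another name and links chromosomes to microtubules, was at 2.48 and 4.64 TPM in the control pools against 7.84 and 11.2 TPM in the knockout-labelled pools. The log2 fold change was 1.41 (SE 0.31) for Tpx2, which activates Aurora A and binds Eg5, 1.55 (SE 0.34) for the cytokinetic scaffold gene Anln, 1.28 (SE 0.29) for Ect2, the exchange factor of the cleavage furrow, and 1.20 (SE 0.34) for Racgap1, the partner of KIF23 in centralspindlin. Cit, the citron kinase gene, was the exception with overlapping groups (-0.08, SE 0.27).

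The mitotic kinesins were then set against 9 proliferation markers (Mki67, Top2a, Pcna, Mcm2, Ccnb1, Ccna2, Cdk1, Bub1 and Plk1), a ratio chosen after the values were seen. The markers summed to 47.0 and 74.7 TPM in the control pools and to 124 and 141 TPM in the knockout-labelled pools. All 9 lay above both controls, beside 36.7% of all tested genes. Mki67, which marks cycling cells, was at 11.6 and 23.3 TPM in the control pools against 34.1 and 49.7 TPM in the knockout-labelled pools. The summed TPM of the mitotic kinesins divided by that of the markers was 0.464 and 0.399 in the control pools and 0.378 and 0.431 in the knockout-labelled pools. The ratio did not separate the groups, and its highest value was 1.23 times its lowest. That highest value, in control replicate 1, includes 0.161 from Kif20b alone, which gave at most 0.0648 in any other library.

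Single mitotic members departed from the ratio of their class. Kif2c stood at 0.0153 and 0.0155 of the marker sum in the control pools and at 0.0343 and 0.0346 in the knockout-labelled pools, with replicates almost equal and groups 2.26-fold apart at the extremes. Kif18b stood at 0.0169 and 0.0161 against 0.0252 and 0.0301. Kif14 and Kif4 also had a higher ratio in both knockout-labelled pools, which makes 4 of 11 members, while Kif11, Kif20b and Kif23 had a lower one and the other 4 overlapped. Kif2c, Kif14 and Kif18b had a control mean under 1 TPM and passed the threshold of level through the knockout-labelled pools. Their higher ratios are thus partly set by the rule. Kif20b stood at 0.161 in control replicate 1 and between 0.0544 and 0.0648 in the other libraries. These ratios were not tested, and no share over all genes was taken for them.

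**Figure D2:**
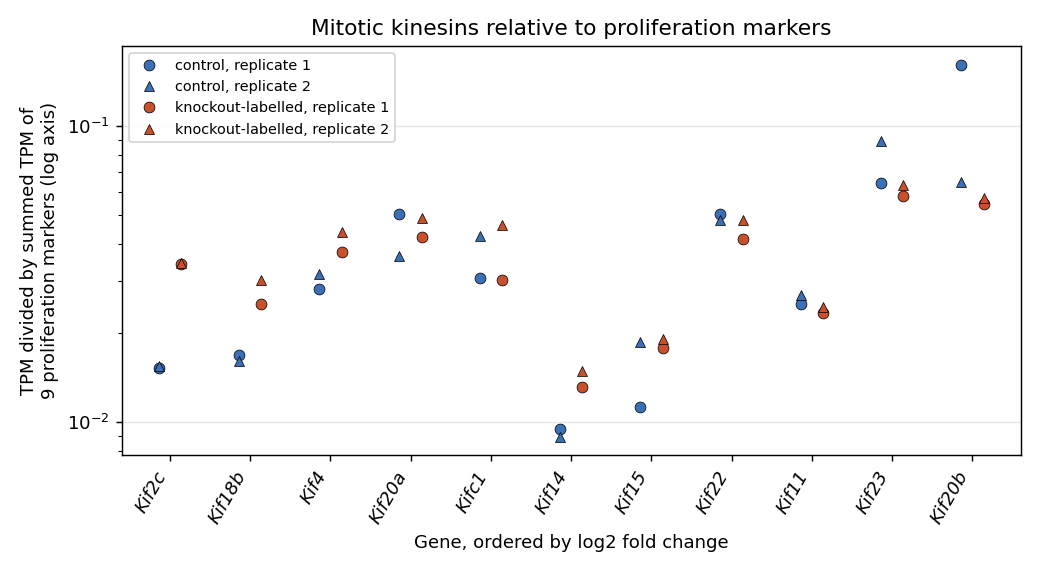
TPM of each mitotic kinesin divided by the summed TPM of the 9 proliferation markers in the same library, on a log axis. The Kif2c points form 2 tight pairs, 0.0153 and 0.0155 in the control pools and 0.0343 and 0.0346 in the knockout-labelled pools, while Kif11 stays between 0.0233 and 0.0269.

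Transport kinesins differed less. Their summed level was 332 and 345 TPM in the control pools and 376 and 419 TPM in the knockout-labelled pools. The median log2 fold change was 0.33 (SD 0.32), and 0.12 with median-ratio scaling, which moved the median of all tested genes from 0.17 to -0.03. Of 14 members, 7 lay above both controls and 1 below, beside 36.7% and 14.3% of all genes, and with median-ratio scaling 5 of 14 lay above and 3 below, beside 24.1% and 25.5%. With p under 0.05 before adjustment, 3 were higher and 0 lower as deposited, beside 13.4% and 4.46%. With median-ratio scaling 1, Kif1a, was higher and 1, Kifc2, was lower, beside 9.54% and 7.19%. Kif1a was also among the 7 above both controls and the 3 higher as deposited. Its control mean was under 1 TPM and it passed the threshold of level through the knockout-labelled pools. The transport median and these counts are thus partly set by the rule. None passed the adjusted threshold (lowest adjusted p = 0.182 by limma). With median-ratio scaling 10 of the 11 mitotic kinesins lay above both controls, beside 24.1%. Before adjustment 6 of them were higher with p under 0.05, beside 9.54%. Without mitochondrially encoded genes 5 transport kinesins lay above both controls, beside 27.2% of genes. The mitotic and transport medians differed by 0.55, which was 0.62 with median-ratio scaling and 0.85 by voom on whole reads. Since mitotic kinesins are low and transport kinesins high, the choice of pseudocount moves this difference, to 0.25 with a pseudocount of 5. The transport median was 0.14 without control replicate 1. Without knockout-labelled replicate 2 it was 0.11, or -0.01 relative to all genes, while the mitotic one was 0.75, or 0.62 relative to all genes.

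**Figure D3:**
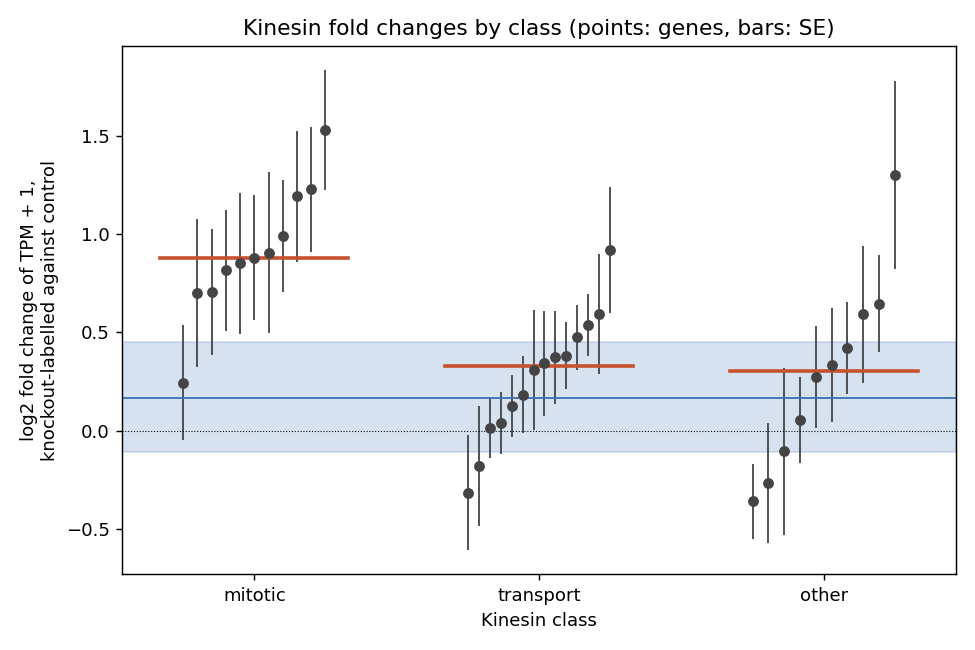
Log2 fold change of TPM + 1 for each member, knockout-labelled against control, with bars of 1 SE, by class; red lines are class medians, the blue line is the median of all tested genes and the blue band their interquartile range. The red line stands at 0.88 for the mitotic, 0.33 for the transport and 0.30 for the other kinesins, beside a blue line at 0.17.

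Kif1c, Kif5b and Kif16b, all abundant, were nearly level. Kif1c, which takes part in vesicle traffic and in podosome turnover, was at 89.3 and 77.3 TPM in the control pools against 83.1 and 108 TPM in the knockout-labelled pools. Kif5b, the ubiquitous heavy chain of conventional kinesin, was at 56.1, 60.4, 60.7 and 57.0 TPM in the same order (log2 fold change 0.01, SE 0.15). Kif16b, a carrier of early endosomes, was at 38.9, 40.7, 39.2 and 42.7 TPM (0.04, SE 0.16). In these 3 the groups overlapped, and the sign of each small log2 fold change turned with median-ratio scaling (-0.05, -0.22 and -0.19).

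Kifc3 and Kif13b had the smallest p of the abundant carriers. Kifc3, a minus-end motor linked to apical transport and adherens junctions in epithelia, was at 33.6 TPM in both controls against 46.6 and 52.1 TPM in the knockout-labelled pools (log2 fold change 0.54 with SE 0.16, adjusted p = 0.182 by limma). Exons of Kifc3 lie partly in other gene models, so its counts are uncertain. Kif13b, a carrier of the scaffold DLG1, was at 23.8 and 26.3 TPM against 35.9 and 34.3 TPM (0.47, SE 0.16). Both genes had tight replicates and groups that did not overlap. With median-ratio scaling their log2 fold changes were 0.31 and 0.25 (adjusted p = 0.512 and adjusted p = 0.575 by limma), and neither was then under 0.05 before adjustment.

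The kinesin-2 motor builds and supplies cilia as a complex of KIF3A, KIF3B and the accessory subunit KAP3. Kif3b was at 21.9 TPM in both controls against 27.1 and 30.6 TPM in the knockout-labelled pools (log2 fold change 0.38, SE 0.17). Kif3a was at 11.8 and 17.3 TPM against 18.6 and 19.0 TPM (0.37, SE 0.24), with control replicate 2 close to the knockout-labelled values. Kifap3, which encodes KAP3, was at 18.7, 23.8, 23.3 and 23.5 TPM in the same order, and its groups overlapped. Kif3c, an alternative partner of KIF3A, was at 3.43, 4.97, 4.60 and 6.26 TPM, and 40.7% of its exon bases lie in other genes.

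Carriers best known from neurons were at low levels. Kif1a, the carrier of synaptic vesicle precursors, was at 0.256 and 0.541 TPM in the control pools against 1.59 and 1.68 TPM in the knockout-labelled pools, on 16, 27, 106 and 131 reads. Its log2 fold change was 0.92 (SE 0.32, adjusted p = 0.230 by limma), and its means were 4.09-fold apart. Its control mean was under 1 TPM and it passed the threshold of level through the knockout-labelled pools, so this fold is partly set by the rule. Kif5c, a heavy chain of conventional kinesin, was at 1.09 and 1.26 TPM against 2.56 and 2.01 TPM (0.59, SE 0.30). Kif5a, its neuronal relative, was at 1.58, 2.14, 1.46 and 1.57 TPM, a direction opposite to that of Kif5c. Of the 5 neuron markers listed, only Syt1 and Nefl were in the table, and their sum was at most 2.04 TPM in any library.

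The remaining carriers gave no clear difference. Kif1b, which moves mitochondria and vesicles, was at 30.5 and 29.2 TPM in the control pools against 32.1 and 33.2 TPM in the knockout-labelled pools. Kif13a, which moves mannose 6-phosphate receptors, was at 12.5 and 17.3 TPM against 15.8 and 22.7 TPM. Kifc2 was at 7.64, 12.3, 7.03 and 8.24 TPM in the same order, and control replicate 2 was apart from the other 3 libraries.

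Adaptors of these motors, from a list of light chains, accessory subunits and cargo linkers, had no common direction. Of 21 tested genes, 7 lay above both controls and 5 below, beside 36.7% and 14.3% of all genes. By limma 2 were higher and 0 lower with p under 0.05 before adjustment, beside 13.4% and 4.46%. The median log2 fold change was 0.11. Klc3, a light chain gene, was at 0.791 and 1.34 TPM in the control pools against 3.17 and 3.30 TPM in the knockout-labelled pools (log2 fold change 1.05 with SE 0.31, adjusted p = 0.184 by limma). Klc4, the most abundant light chain here, was at 66.8 and 55.2 TPM against 46.0 and 54.1 TPM. The log2 fold change was 0.39 (SE 0.15) for Arl8a and -0.25 (SE 0.16) for Arl8b, the paralogous small GTPases that link kinesins to lysosomes, 0.40 (SE 0.21) for their effector gene Plekhm2, and -0.30 (SE 0.16) for Rhot2, which anchors motors to mitochondria.

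Cytoplasmic dynein, the motor of the opposite direction, was read beside the kinesins. Of 20 tested dynein and dynactin genes, 11 lay above both controls and 2 below, beside 36.7% and 14.3% of all genes. With p under 0.05 before adjustment 3 were higher and 0 lower, near the 13.4% and 4.46% of all genes. The heavy chain gene Dync1h1 was at 152 and 148 TPM in the control pools against 209 and 215 TPM in the knockout-labelled pools (log2 fold change 0.50 with SE 0.15, adjusted p = 0.195 by limma). The log2 fold change was 0.56 (SE 0.17) for the light intermediate chain gene Dync1li2 and 0.51 (SE 0.20) for the intermediate chain gene Dync1i2, while the light chain gene Dynll2 had -0.44 (SE 0.19). The list's median of 0.19 was close to the 0.17 of all tested genes.

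The other kinesins have ciliary, signalling or dual roles. The 10 members had a median log2 fold change of 0.30, and 6 lay above both controls and 2 below, beside 36.7% and 14.3% of all genes. Kif7, among the 6, had a control mean under 1 TPM, so this count is partly set by the rule. Kif12, a kinesin of kidney and liver epithelium whose gene modifies cystic disease, was the most abundant kinesin of all. It was at 199 and 265 TPM in the control pools against 217 and 262 TPM in the knockout-labelled pools, which was between 29.3% and 35.7% of the TPM of all 37 members in a library. Its groups overlapped, and replicate 2 was above replicate 1 in both.

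Kif21a and Kif21b, which restrain microtubule growth, differed in opposite directions. Kif21a was at 69.6 and 53.8 TPM in the control pools against 45.1 and 50.1 TPM in the knockout-labelled pools (log2 fold change -0.36 with SE 0.19, adjusted p = 0.402 by limma). Kif21b, known from neurons and immune cells, was at 0.282 and 1.72 TPM in the control pools against 2.69 and 4.71 TPM in the knockout-labelled pools, on 23, 112, 235 and 480 reads (1.30, SE 0.48, adjusted p = 0.249). The Kif21b controls were farther apart as a ratio than control replicate 2 was from either knockout-labelled library. The leukocyte gene Ptprc, one of the markers above, was at 0.955, 3.74, 6.19 and 8.19 TPM, with its lowest value in control replicate 1 and its highest in knockout-labelled replicate 2, as in Kif21b. Control replicate 1 was also lowest for 10 of the 11 mitotic kinesins, and knockout-labelled replicate 2 was highest for all 11. No share over all genes was taken for this order. The part of leukocytes in the Kif21b values was not tested.

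Kif26b, a kinesin without motor activity that acts in kidney development and cell adhesion, was at 5.12 and 4.77 TPM in the control pools against 9.18 and 7.48 TPM in the knockout-labelled pools (log2 fold change 0.65 with SE 0.25, adjusted p = 0.264 by limma). Its relative Kif26a was at 2.33, 4.79, 2.18 and 4.23 TPM in the same order, so that the replicate number and not the group separated its values. Kif2a, which takes apart microtubule ends at spindle poles and in neurons, was at 7.41 and 9.74 TPM against 12.3 and 11.1 TPM (0.42, SE 0.23), with 19.2% of its exon bases shared with Dimt1.

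Kif7, Kif24, Kif9 and Kif27, which act at cilia or centrioles or are related to such kinesins, were low. Kif7, the regulator of Hedgehog signalling at the ciliary tip, was at 0.620 and 1.22 TPM in the control pools against 1.52 and 2.24 TPM in the knockout-labelled pools, and 20.3% of its exon bases lie in other genes, Ticrr among them. Kif24, which acts at the mother centriole, was at 2.14 and 2.73 TPM against 3.02 and 3.64 TPM, and Kif9, of motile cilia, at 3.58 and 3.96 TPM against 4.65 and 4.87 TPM. Kif27, a relative of Kif7, was at 2.18 and 1.61 TPM against 1.42 and 1.38 TPM. The first 3 lay above both controls and Kif27 below both, and the control mean of Kif7 was under 1 TPM, so that it too passed through the knockout-labelled pools. Kif1bp was at 16.2 and 14.8 TPM in the control pools against 14.7 and 14.3 TPM in the knockout-labelled pools.

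**Figure D4:**
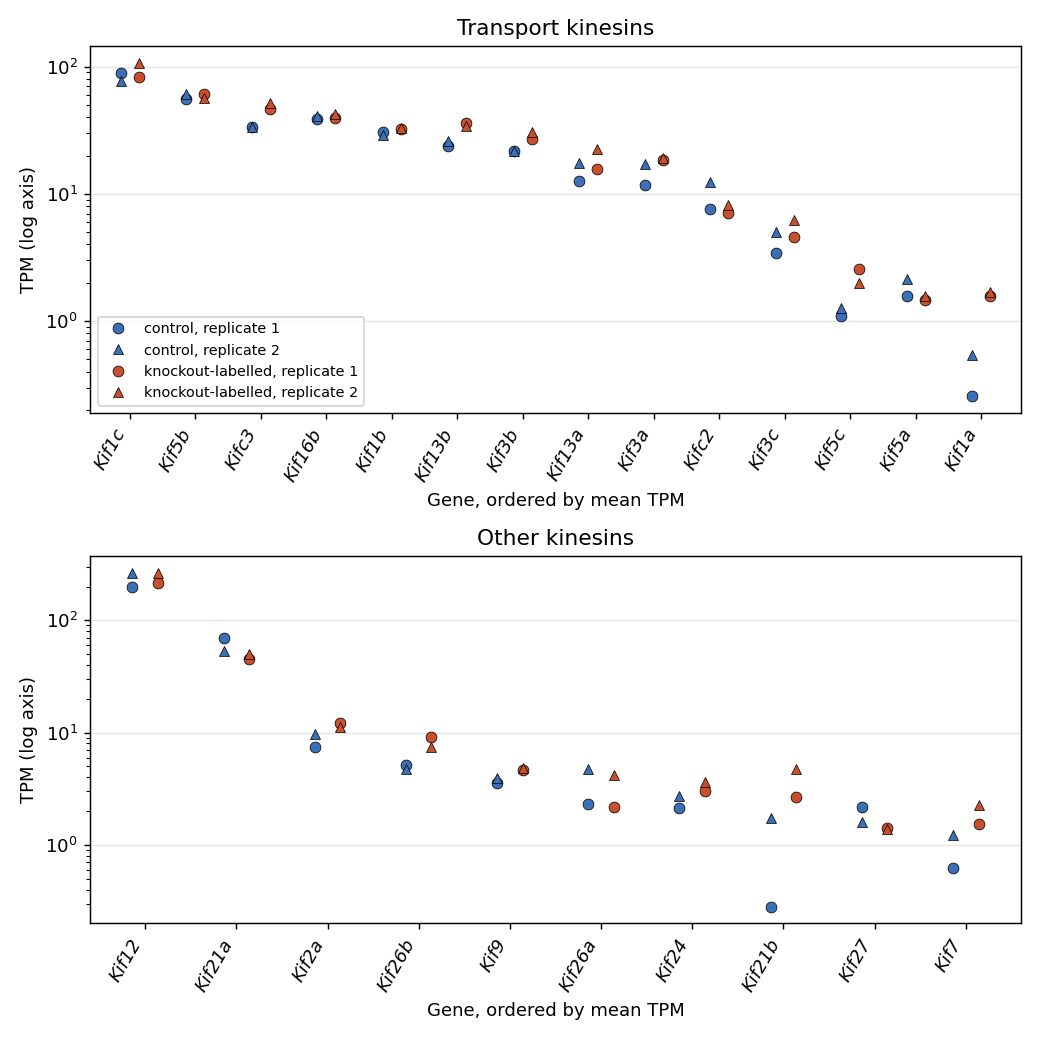
Level of each transport kinesin (upper panel) and other kinesin (lower panel) in each library, in TPM on a log axis, with genes in order of mean level. Most points of a gene lie close together, as for Kif5b between 56.1 and 60.7 TPM, and the widest gaps are in Kif1a and Kif21b.

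As a share of the family, mitotic kinesins took 3.28% and 4.01% of the TPM of all 37 members in the control pools and 6.36% and 7.15% in the knockout-labelled pools. Transport kinesins took 50.1% and 46.5% against 50.9% and 49.3%. The mitotic shares did not overlap between the groups, and the transport shares did. Kif2c, Kif14, Kif15 and Kif18b, which passed the threshold of level through the knockout-labelled pools, are part of the mitotic shares. These shares are thus partly set by the rule.

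**Figure D5:**
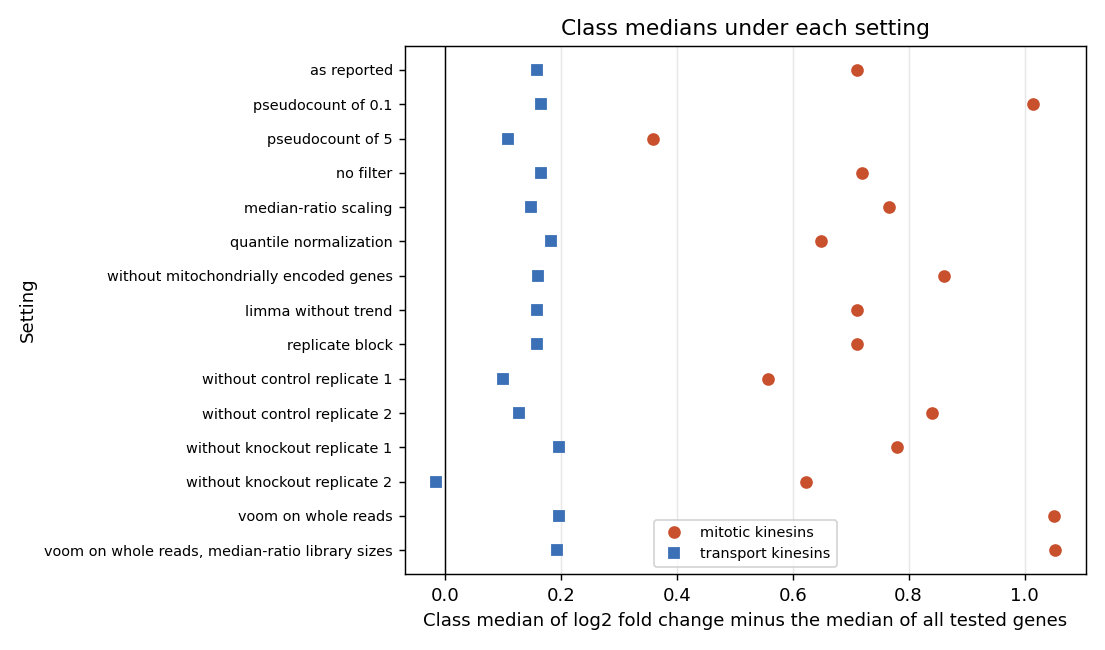
Median log2 fold change of the mitotic (circles) and transport kinesins (squares) minus the median of all tested genes, under each setting on the vertical axis; the filter at 5 TPM, which kept 2 mitotic members, is not drawn. The mitotic median is above the transport median in every setting drawn, from 0.36 with a pseudocount of 5 to 1.05 by voom, and the transport median falls to -0.01 without knockout-labelled replicate 2.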

How the data were processed

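Expression was deposited by the authors as TPM for 22809 genes, with 1 column a library matched by name. Tools listed in the submitters' processing notes, without roles, are STAR 2.7.9, featureCounts 2.0.0, fastp 0.20 and DESeq2 1.30.1, on the build GRCm38.p6. The sources used here do not give the annotation, strand setting or gene filter. Symbols came from GENCODE M21 by identifier without version (22762 genes). TPM times exon length gave whole reads for 22176 genes (97.2%, relative tolerance 1e-06), among them 35 of the 37 members, Kif1b and Kif13a being the exceptions. These reads are not the deposited values. Limma 3.58.1 (R 4.3.3, lmFit and eBayes with trend, two-sided, no covariate) was fitted to log2(TPM + 1) of 18612 genes with a mean of at least 1 TPM, with Benjamini-Hochberg adjustment over all of them, and was tested on simulated data. The lists, classes and members were chosen with earlier results of these data known. Every member is named, with up to 4 genes of each other list by smallest p; Cenpe, Cit, Klc4, Kifap3, Mki67 and Ptprc were named after their values were seen. Replicates are separate pools of mice, so p-values measure the spread between these pools. Read counts carry counting error that is smaller for the abundant carriers. The ratio to proliferation markers, the promoter search and voom with median-ratio library sizes were added after seeing the data. Alternatives were other pseudocounts, filters and scalings, limma without trend, a replicate block, voom and each library left out. Python 3.11.15, pandas 2.3.3, numpy 2.4.6 and matplotlib 3.10.9 were used.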

Additional observations from a re-analysis of the deposited data

How the results depend on the processing

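Of 37 members, 30 kept their direction in every setting tried, and 27 of the 531 alternative values turned sign. With median-ratio scaling the log2 fold change turned to -0.18 in Kif12, -0.19 in Kif16b, -0.10 in Kif1b, -0.051 in Kif1c and -0.22 in Kif5b, and the transport median was 0.12. With quantile normalization it was -0.076 in Kif16b, -0.0085 in Kif1b and -0.071 in Kif5b, with a transport median of 0.15. Without mitochondrially encoded genes it was -0.036 in Kif12, -0.050 in Kif16b and -0.076 in Kif5b. By voom on whole reads it was -0.0015 in Kif12, -0.012 in Kif16b and -0.036 in Kif5b, and with median-ratio library sizes, added after seeing the data, -0.18 in Kif12, -0.20 in Kif16b, -0.056 in Kif1c and -0.22 in Kif5b, with a transport median of 0.15. The difference between the mitotic and transport medians was 0.85 with a pseudocount of 0.1, 0.25 with a pseudocount of 5, 0.21 with a filter at 5 TPM, 0.85 by voom and 0.86 by voom with median-ratio library sizes. The mitotic median was 0.46 with a pseudocount of 5 and 0.47 with the filter at 5 TPM, which kept 2 mitotic members. The single gene called by limma became 0 with quantile normalization, without trend and by either voom fit, where 2080 and 1657, 2385 and 737, 2546 and 970, and 1836 and 1405 genes were higher and lower with p under 0.05 before adjustment.

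With 1 library left out, the lone library of a group was assumed to vary like the other group. Calls then ranged from 0, without control replicate 1, to 2080, without control replicate 2, and the transport median from 0.11 to 0.45. The log2 fold change ranged from -0.035 to 0.52 in Kif20b, -0.15 to 0.26 in Kif12, -0.50 to 0.29 in Kif26a, -0.021 to 0.10 in Kif16b, -0.00083 to 0.37 in Kif1c and -0.037 to 0.067 in Kif5b. Same-numbered libraries had a correlation of deviations of 0.14 over 18612 genes, and their numbers are not stated to mark a pairing. With a replicate block 1 gene was called, and the mitotic and transport medians stayed at 0.88 and 0.33. By that fit 8 mitotic kinesins were higher with p under 0.05 before adjustment. The share of all genes is not given for it, so this count is not read as a result. The cause of these changes was not tested. Differences in members below about 100 reads a library rest on few counts.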
